A study of Mus musculus with 24 samples.

Results

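Interferon-stimulated genes are the genes that a cell switches on when an interferon binds its receptor. They were followed here in mouse liver labelled as knocked out for DNMT1, the enzyme that restores DNA methylation after each round of replication. Total RNA of 24 liver samples was measured on an Illumina expression array. The 6 groups of 4 arrays each are livers labelled DNMT1 knockout (KO) at week 4, 8 and 20 and livers labelled control at the same weeks. The labels give neither strain nor sex, do not say whether a week is an age or a time after the deletion, and do not name what deletes the gene or in which liver cells. Nor do they state that each array stands for its own animal. P-values here therefore rest on the scatter among arrays, which may be technical.

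The set has 39 named genes, listed by symbol as known targets of interferon. Of these, 37 have a probe under that symbol, and 33 were above background, an intensity over 16.3, on 4 or more of the 24 arrays. These 33 are called the measured members, and counts of members below are out of them. No probe carried the symbol Isg15 or Xaf1. The probes of Ifit1, Ifi44 and Iigp1 were above background on 0 arrays and those of Oas3 on at most 3. Just inside the limit lay Oas1a and Tgtp with 5 arrays and Mx1 with 6, followed by Isg20 with 12 and Rtp4 with 22. The other 28 measured members were above background on all 24 arrays. A dim member could pass only through the group where it was bright, so counts are also given for those 28. The whole array gave 10734 genes tested.

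Interferons are secreted proteins that cells make when they sense viral or misplaced nucleic acid. Type I interferons act through a receptor found on nearly every cell, the kinases JAK1 and TYK2, and a complex that holds STAT2 and IRF9, which binds the interferon-stimulated response element (ISRE) of target genes such as the Ifit and Oas families. Interferon gamma, made mainly by T and NK cells, acts through another receptor and the gamma-activated site (GAS) of its target genes, and raises guanylate-binding proteins, immunity-related GTPases and immunoproteasome subunits. In the liver both hepatocytes and the macrophages, endothelium and lymphocytes between them can answer. Many genes respond to both types. The type I class here is the Ifit genes, the Oas and Oasl genes and Irf7 (8 of 10 measured), and the gamma-type class is the Gbp genes, the immunity-related GTPases and Psmb8 and Psmb9 (9 of 10 measured).

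The targeted gene and 3 arrays were looked at first. Dnmt1 was read by 1 probe, at 87.3, 70.4, 75.3 and 76.1 in KO livers of week 8, against 104, 88.3, 101 and 102 in control livers. Its differences of -0.25 ± 0.19, -0.30 ± 0.19 and -0.58 ± 0.19 at weeks 4, 8 and 20 did not pass (adjusted p = 0.364, 0.2 and 0.0737), and the sources used here do not place this probe inside or outside the deleted exons, so it checks nothing. The library labelled KO week 8 replicate 4 gave -10.8 for the Y-linked Eif2s3y, against 544 to 600 on the other KO arrays of that week. Without it 23 members were higher at week 8, beside 25 with it. Control week 20 replicates 3 and 4 gave 4070.1 and 3674 for the acute phase gene Saa2, against 29.6 and 44.4 on replicates 1 and 2. Without both of them 0 members were lower and 1, Oas1g, was higher at week 20, beside 1 lower (Ifi47) and 0 higher with them, and 19 rather than 23 differences shrank from week 8 to week 20. Control week 20 replicates 3 and 4 were also brighter than replicates 1 and 2 for Ifi47, Irf7, Irf9, Ifi27, Ifitm3, Bst2 and other members. Their part in the week 20 values was not tested beyond leaving them out.

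KO livers carried higher levels of most measured interferon-stimulated genes at weeks 4 and 8 and of none by the test at week 20. At week 4, 24 of the 33 were higher and 0 lower by limma at an adjusted p of 0.05, against 14.8% of all genes tested called higher. At week 8, 25 were higher and 0 lower, against 24.9%. At week 20, 0 were higher, against 3.45%, and 1 was lower (Ifi47), against 2.25%. At an unadjusted p of 0.05 the counts were 27 higher and 0 lower at week 4, 28 and 0 at week 8, and 2 and 2 at week 20. Among the 28 members bright on every array, 22 were higher at week 4 and 22 at week 8. The median difference over the 33, KO minus control on the log2(intensity + 16) scale, was 0.90 at week 4, 1.24 at week 8 and 0.00 at week 20, beside -0.01, -0.07 and 0.00 over all genes tested. This scale understates the change of dim genes. In bulk liver, fewer cells of a type and less RNA per cell cannot be told apart, and the same holds for more cells and more RNA. Macrophage markers were higher in the same weeks (7 of 9 at week 4 and 8 of 9 at week 8), as were neutrophil markers at week 8 (4 of 4). Some of these markers, such as Gpnmb and Mpo, were at or near background on control arrays. The part of these cells in the counts of members was not tested.

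A total of 22 members were higher at both weeks. Among all genes tested 14.8% were higher at week 4 and 24.9% at week 8, and the share higher at both was not counted. Irgm1 and Tap1 passed the test at week 4 but not at week 8, and Irf1, Mx1 and Gbp6 at week 8 but not at week 4. The 6 members higher at neither week were Stat2, Ifi35, Bst2, Isg20, Tgtp and Ifi47. The KO arrays lay wholly above the control arrays for 26 members at week 4 (15.8% of all genes tested), for 24 at week 8 (22.6%) and for 1, Oasl2, at week 20 (5.60%).

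**Figure D1:**
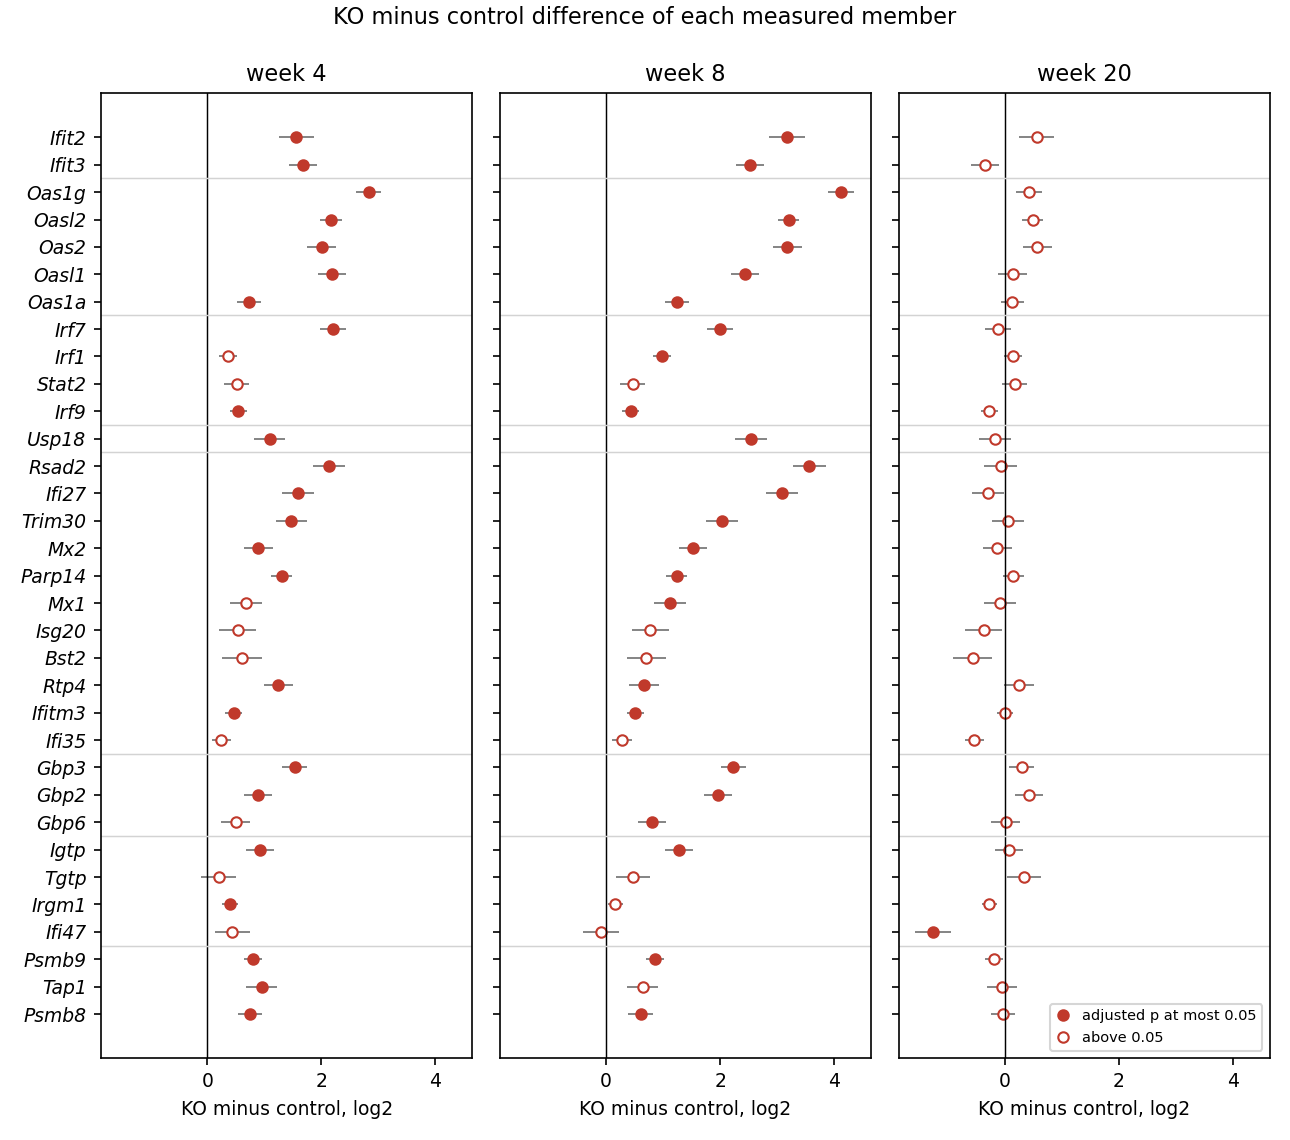
KO minus control difference of the 33 measured members at weeks 4, 8 and 20 on the log2(intensity + 16) scale (4 arrays per group). Points are differences, bars are standard errors, filled points have a limma adjusted p of at most 0.05, and thin lines part the role groups. Filled points lie right of 0 at weeks 4 and 8, and at week 20 Ifi47 alone is filled, left of 0.

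Because the targets of both interferon types are read through short promoter elements, the promoters of Irf7 and of the 2 members of highest mean signal in each class are shown, as given by RefSeq on GRCm38.p6. Each is the 250 bases before the annotated start, 5′ to 3′ along the gene. Capitals mark matches to GAAANNGAAA (ISRE-like, on either strand, matches may overlap each other) or TTCNNNGAA (GAS-like, which reads the same on both strands).
Irf7, chr7:141266425-141266674, minus strand: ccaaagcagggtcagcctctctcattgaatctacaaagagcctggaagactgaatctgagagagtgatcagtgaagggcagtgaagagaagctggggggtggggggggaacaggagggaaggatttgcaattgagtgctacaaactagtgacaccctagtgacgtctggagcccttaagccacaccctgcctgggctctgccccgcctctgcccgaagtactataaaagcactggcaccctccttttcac
Ifit3, chr19:34583279-34583528, plus strand: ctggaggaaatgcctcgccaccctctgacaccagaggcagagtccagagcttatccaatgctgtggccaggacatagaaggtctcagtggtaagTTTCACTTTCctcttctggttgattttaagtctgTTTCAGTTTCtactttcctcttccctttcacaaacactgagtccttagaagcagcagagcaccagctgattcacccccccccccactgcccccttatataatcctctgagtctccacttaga
Oas1g, chr5:120887614-120887863, minus strand: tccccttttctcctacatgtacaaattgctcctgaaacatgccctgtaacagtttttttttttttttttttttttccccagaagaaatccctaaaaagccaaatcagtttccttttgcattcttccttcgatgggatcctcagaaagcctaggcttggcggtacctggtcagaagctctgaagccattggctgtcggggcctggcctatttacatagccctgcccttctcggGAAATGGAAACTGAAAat
Irgm1, chr11:48871421-48871670, minus strand: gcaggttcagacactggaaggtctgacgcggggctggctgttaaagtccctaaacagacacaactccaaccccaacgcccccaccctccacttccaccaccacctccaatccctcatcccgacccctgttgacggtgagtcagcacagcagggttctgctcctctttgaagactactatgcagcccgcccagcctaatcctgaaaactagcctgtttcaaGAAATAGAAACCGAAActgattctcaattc
Igtp, chr11:58199306-58199555, plus strand: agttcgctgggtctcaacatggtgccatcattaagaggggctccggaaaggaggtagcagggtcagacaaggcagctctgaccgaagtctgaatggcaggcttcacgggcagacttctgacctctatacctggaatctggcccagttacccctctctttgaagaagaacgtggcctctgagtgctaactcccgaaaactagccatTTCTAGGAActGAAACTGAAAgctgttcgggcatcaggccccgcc
Ifit3, of the type I class, has ISRE-like letters that begin 156 and 122 bases before the start. In Oas1g, of the same class, they begin 18 and 12 bases before it and overlap. The gamma-type GTPase gene Irgm1 has overlapping matches at 30 and 24 bases. Igtp, also of the gamma-type class, has an ISRE-like match at 34 bases and a GAS-like match at 45. In this window of Irf7 neither string of letters occurs. The RefSeq table held promoters of 30 of the 39 members, matched by current symbol, and 15 of them had an ISRE-like match, beside 936 of 27025 genes (3.46%). GAS-like letters were found in 8 of the 30 (26.7%), beside 2197 of 27025 (8.13%). Among measured members the ISRE-like letters stood in 3 of 7 type I and 5 of 8 gamma-type promoters, and the GAS-like letters in 2 of 7 and 3 of 8. A match is a description of letters and shows no binding.

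The interferons themselves gave little signal. Of 19 ligand genes in the pathway list 17 had a probe and 3 were measured, Ifna1, Ifna6 and Ifne. Ifnb1, interferon beta, and Ifng, interferon gamma, were above background on 0 of 24 arrays. None of the 3 measured ligands was higher by limma at any week, and at an unadjusted p of 0.05 the count higher was also 0 at every week. Ifna1 signal was 16.6, 17.0, 4.58 and 9.37 in KO livers of week 8, against 31.3, 13.9, 37.7 and 35.2 in control livers. It was lower there by the test (-0.70 ± 0.24, adjusted p = 0.0197). Ifna6 signal was 59.2, 48.5, 37.0 and 57.6 in KO livers of week 8, against 113, 108, 92.7 and 143 in control livers, without overlap. Its difference was -0.97 ± 0.17 (adjusted p = 5.73e-05). The alpha interferon genes are near-identical copies, so which of them these dim probes read is uncertain.

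Receptor subunits were partly higher. Of 6 receptor genes 5 were measured, and the probe of Ifnar1, a subunit of the type I receptor, was above background on 0 arrays. Ifnar2, its partner, differed by -0.35 ± 0.23 at week 4 and 0.53 ± 0.23 at week 8 (adjusted p = 0.26 and 0.0555). Il28ra, the ligand-binding subunit of the type III interferon receptor, was higher at week 4 (1.10 ± 0.30) and at week 8 (2.29 ± 0.30, adjusted p = 0.00776 and 8.84e-07), and Il10rb, which completes that receptor, by 0.79 ± 0.25 and 1.11 ± 0.25 (adjusted p = 0.0179 and 0.000587). Il28ra read only 1.84, -2.80, -2.51 and 1.02 on control arrays of week 8 and was measured mostly through KO arrays. The calls of Il28ra are thus not separate support for a KO difference. Ifngr1, the ligand-binding subunit for interferon gamma, was higher by 0.52 ± 0.15 and 1.36 ± 0.15 (adjusted p = 0.0107 and 5.58e-08). Ifngr2, its signalling partner, passed the test at week 8 (0.50 ± 0.17, adjusted p = 0.0151). In all 3 of the 5 were higher at week 4 and 4 at week 8, the dim Il28ra among them, beside 14.8% and 24.9% of all genes tested. At week 20 none of the 5 passed, beside 3.45% of all genes called higher, and 1 did at an unadjusted p of 0.05.

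Among the kinases below the receptors, Jak1 was higher at week 4 (0.67 ± 0.19, adjusted p = 0.0111) and Tyk2 at week 8 (0.38 ± 0.14, adjusted p = 0.0307). Neither Jak2 nor Stat3, which serves other cytokines, passed the test at any week.

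Inhibitors of the pathway went both ways. Ptpn6, the SHP-1 phosphatase of blood cells that shuts off JAK kinases, was higher at weeks 4 and 8 (0.62 ± 0.14 and 1.73 ± 0.14, adjusted p = 0.00219 and 6.16e-10), as was Pias1, a SUMO ligase that restrains cytokine signalling (0.38 ± 0.12 and 0.33 ± 0.12, adjusted p = 0.0217 and 0.0279). Socs3, a feedback inhibitor of cytokine receptors, was higher at week 8 (1.54 ± 0.41, adjusted p = 0.00334). Irf2, which competes with IRF1 for the ISRE, was lower at week 8 (-0.93 ± 0.13, adjusted p = 2.78e-06). Socs1, the main brake on interferon gamma signalling, and Cish, of the same family, passed the test at no week. The Socs1 probe was at background on most arrays, with 18.4, -3.18, 5.43 and 4.32 in KO livers of week 8, so a difference may have been missed. In all 2 of the 6 measured inhibitors were higher at week 4, 3 were higher and 1 lower at week 8, and none passed at week 20. Of all genes tested 14.8% were higher at week 4 and 24.9% higher and 24.0% lower at week 8. At week 20, 3 of the 6 were higher at an unadjusted p of 0.05.

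Irf7, the transcription factor that amplifies type I interferon production, stood out among the regulators of the set. Irf7 signal was 538, 448, 353 and 618 in KO livers of week 4, against 101, 120.2, 74.5 and 75.8 in control livers. At week 8 it was 789, 695, 741 and 395 in KO livers, against 139.8, 134, 176 and 138 in control livers. At week 20 KO livers gave 103, 106, 83.2 and 101 and control livers 88.2, 64.8, 146 and 159. Each KO array lay above each control array at weeks 4 and 8, while the groups of week 20 overlapped. The differences were 2.21 ± 0.23 at week 4 and 2.0 ± 0.23 at week 8 (adjusted p = 8.03e-08 and 9.38e-08), 4.62-fold and 4.01-fold on the offset scale. At week 20 Irf7 differed by -0.12 ± 0.23 (adjusted p = 0.801).

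Irf9, the DNA-binding subunit of the complex that reads the ISRE, differed less. Its signal was 645, 711, 682 and 749 in KO livers of week 4, against 498, 504, 381 and 518 in control livers. For week 8 the values were 682, 629, 999.9 and 625 in KO livers and 553, 529, 563 and 478 in control livers. The groups did not overlap at either week. Irf9 was higher by 0.55 ± 0.15 and 0.43 ± 0.15 (adjusted p = 0.00844 and 0.0214). A second Irf9 probe was higher at week 4 (0.71 ± 0.21, adjusted p = 0.014) and did not pass at week 8 (0.17 ± 0.21, adjusted p = 0.531). At week 20 Irf9 read 375, 420.4, 369.6 and 415 in KO livers and 397, 384, 619.8 and 551 in control livers, a difference of -0.27 ± 0.15 (adjusted p = 0.315).

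Stat2, another subunit of that complex, passed at no week. It read 175, 181, 142 and 205 in KO livers of week 4, against 96.1, 95.9, 102 and 197 in control livers, where 1 control array lay among the KO arrays. On week 8 arrays it read 252, 263, 303 and 222 in KO livers, against 162, 251, 148 and 185 in control livers, with 1 overlapping pair of arrays. Its differences were 0.51 ± 0.22 and 0.47 ± 0.22 (adjusted p = 0.0885 and 0.087). Without control week 4 replicate 5 Stat2 passed at week 4. Week 20 gave 119, 224, 189.9 and 171 in KO livers and 131, 102, 205 and 186 in control livers, with the ranges overlapping.

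Irf1, a factor that interferon gamma induces, was higher at week 8. Irf1 signal was 1907, 1961, 1779.5 and 1795 in KO livers of week 4, against 1433, 1514, 1484 and 1322 in control livers. At week 8 it was 2451, 1798, 2038 and 2317 in KO livers, against 859.7, 1021, 1094 and 1387 in control livers. In both weeks every KO array was brighter than every control array. The week 8 difference was 0.98 ± 0.16 (adjusted p = 1.78e-05), and that of week 4, 0.37 ± 0.16, missed the threshold (adjusted p = 0.0907). Week 20 arrays overlapped, with 1739, 1657, 1452 and 1650.4 in KO livers and 1581, 1107, 2202 and 1186 in control livers.

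**Figure D2:**
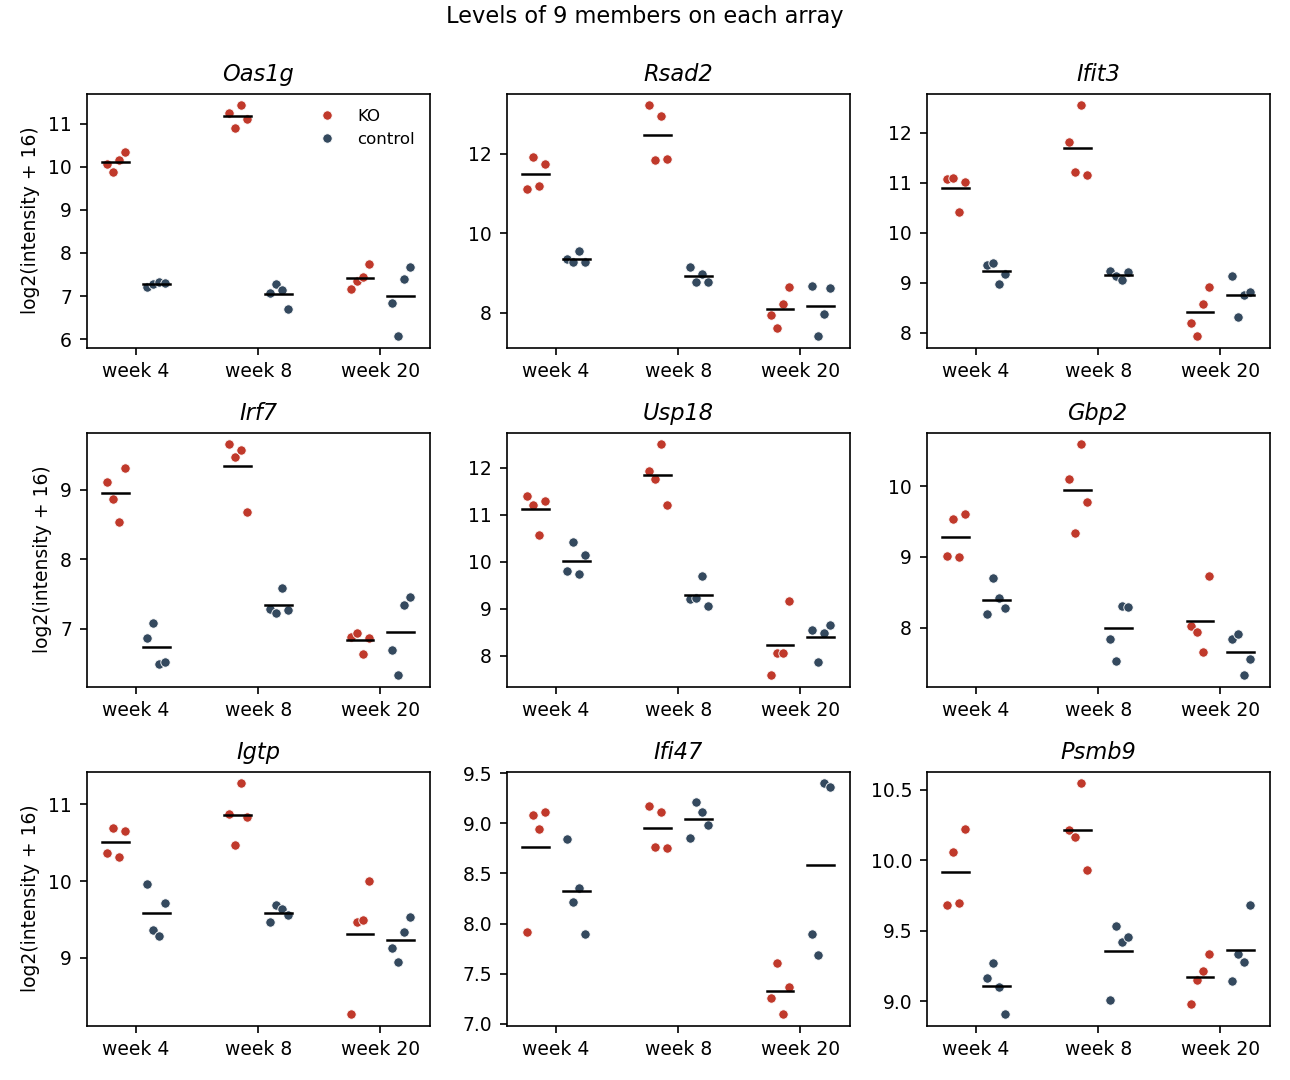
Levels of 9 members on each array as log2(intensity + 16), with the KO arrays left of the control arrays at each week (n = 4 each). Points are arrays and black lines are group means, and each panel has its own axis range. The KO points of Oas1g, Rsad2, Ifit3, Irf7, Usp18, Gbp2, Igtp and Psmb9 stand clear of the control points at weeks 4 and 8 and mix with them at week 20, whereas those of Ifi47 mix at weeks 4 and 8 and lie lower at week 20.

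The Ifit proteins bind viral RNA and block its translation. Ifit3 signal was 2130.2, 2174, 1355 and 2053 in KO livers of week 4, against 636, 659.5, 486 and 563 in control livers. By week 8 KO livers gave 3601, 2358, 5995 and 2272 and control livers 585, 546, 517 and 578. At week 20 the values were 277, 228, 363 and 467 in KO livers and 548, 300.3, 415 and 432 in control livers. The KO arrays were well apart at weeks 4 and 8, and at week 20 they overlapped the control arrays. Ifit3 was higher by 1.68 ± 0.24 and 2.53 ± 0.24 (adjusted p = 1.09e-05 and 5.4e-09). Its week 20 difference, -0.35 ± 0.24, did not pass (adjusted p = 0.428).

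Ifit2 read 339.6, 455, 194 and 385 in KO livers of week 4, against 84.2, 107, 146 and 77.0 in control livers. At week 8 the same probe read 1066, 476, 1543 and 515 in KO livers and 89.3, 56.4, 72.5 and 82.6 in control livers. At week 20 it read 31.4, 41.7, 50.8 and 83.4 in KO livers and 16.6, 31.2, 29.1 and 39.2 in control livers. KO and control overlapped only at week 20. The differences of Ifit2 were 1.56 ± 0.31, 3.17 ± 0.31 and 0.56 ± 0.31 at weeks 4, 8 and 20 (adjusted p = 0.000421, 6.62e-09 and 0.296). A second probe of each gene made the same calls at weeks 4 and 8, with 1.11 and 2.16 for Ifit3 and 1.72 and 2.57 for Ifit2.

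The Oas proteins make 2′-5′ oligoadenylate, which activates an RNA-degrading enzyme, and Oas1g had the largest difference of the 33 at weeks 4 and 8. Oas1g signal was 1057, 928, 1124 and 1281 in KO livers of week 4, against 133, 140.5, 145 and 141 in control livers. By week 8 the signal was 2404, 1900.5, 2741 and 2187 in KO livers, against 118, 139, 125 and 88.1 in control livers. At week 20 it was 127, 146, 157 and 198 in KO livers, against 98.2, 51.2, 154 and 189 in control livers. The lowest KO array was several times brighter than the highest control array at weeks 4 and 8, and the groups overlapped at week 20. Oas1g was higher by 2.83 ± 0.22 at week 4 and 4.12 ± 0.22 at week 8 (adjusted p = 7.34e-10 and 2.94e-13), 7.10-fold and 17.4-fold on the offset scale. Its week 20 difference was 0.42 ± 0.22 (adjusted p = 0.287), and it passed as higher when control week 20 replicates 3 and 4 were both left out. A second Oas1g probe gave 2.62, 4.00 and 0.24 at weeks 4, 8 and 20.

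Oasl2, whose ubiquitin-like tail sets it apart from the enzymes, read 777, 886, 521 and 896 in KO livers of week 4, against 154, 163, 152 and 149 in control livers. In week 8 it read 1557, 1124, 1737 and 833 in KO livers, against 148, 106, 145 and 101 in control livers. In week 20 it read 103, 96.4, 114 and 131 in KO livers, against 72.8, 67.3, 70.4 and 87.3 in control livers. The KO arrays were above the control arrays at all 3 weeks. The differences were 2.18 ± 0.19, 3.20 ± 0.19 and 0.49 ± 0.19 at weeks 4, 8 and 20 (adjusted p = 4.88e-09, 1.4e-12 and 0.134), so that of week 20 missed the threshold.

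Oasl1, known in mouse as a brake on the translation of Irf7 mRNA, read 449.7, 556, 346 and 582 in KO livers of week 4, against 114, 121, 66.1 and 75.5 in control livers. At week 8 KO livers gave 1622, 702, 1500.0 and 721 and control livers 194, 146, 179 and 211. At week 20 KO livers gave 178, 127, 199 and 255 and control livers 136, 179, 171 and 182. KO and control were apart at weeks 4 and 8 but not at week 20. Oasl1 was higher by 2.19 ± 0.25 and 2.44 ± 0.25 (adjusted p = 3.34e-07 and 1.37e-08). It also rose among controls between weeks 4 and 8 (0.87 ± 0.25, adjusted p = 0.0276). Oas2, an enzyme of the same family, was higher by 2.0 ± 0.25 and 3.18 ± 0.25 (adjusted p = 1.79e-06 and 2.47e-10). Oas1a was dim. It was above background on 4 KO arrays and 0 control arrays of week 8, where it was at least 1.68-fold brighter in KO livers (adjusted p = 2.53e-05). Only KO arrays brought it past the filter, so its calls are not separate support for a KO difference. Its call at week 4 (adjusted p = 0.0104) ended when values were floored at 16. The Oas1 genes are close copies, so which of them a probe reads is uncertain.

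Of the other antiviral effectors, 7 of 11 measured were higher at week 4 and 8 of 11 at week 8, beside 14.8% and 24.9% of all genes tested. The count of week 8 holds the dim Mx1, which was measured through its KO arrays. Rsad2, the viperin enzyme that makes a chain-ending nucleotide, read 2198, 3832, 2341 and 3440.1 in KO livers of week 4, against 634, 603, 731 and 605 in control livers. At week 8 it read 9598, 3686, 7909 and 3753 in KO livers, against 552, 418, 489 and 423 in control livers. Week 20 gave 230.3, 179, 282 and 382 in KO livers and 395, 154, 236 and 375 in control livers. Only the groups of week 20 overlapped. Rsad2 was higher by 2.13 ± 0.29 and 3.56 ± 0.29 (adjusted p = 4.22e-06 and 2.99e-10), 4.39-fold and 11.8-fold on the offset scale. For week 20 the difference was -0.07 ± 0.29 (adjusted p = 0.924).

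Ifitm3, a membrane protein that keeps viruses from fusing, read 17588, 21643, 19316 and 21296 in KO livers of week 4, against 14236, 17029, 13427 and 13292 in control livers. Week 8 values were 17405, 19316, 22761 and 20414 in KO livers and 14043, 15776, 13056 and 12873 in control livers. Week 20 values were 12544, 13473, 12222 and 13923 in KO livers and 10920, 9360.2, 16771 and 16678 in control livers. The groups were apart at weeks 4 and 8, and at week 20 control replicates 3 and 4 lay above the KO arrays and replicates 1 and 2 below them. Ifitm3 was higher by 0.46 ± 0.14 and 0.52 ± 0.14 (adjusted p = 0.0181 and 0.00462). Its week 4 call ended without any 1 of control week 4 replicates 4 and 5 and KO week 4 replicates 3 and 5.

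Ifi27, a mitochondrial protein of the interferon response, read 1708, 1910.4, 1464 and 2624 in KO livers of week 4, against 649.7, 704, 683 and 453 in control livers. On week 8 arrays it read 3654, 3156, 3908 and 2846 in KO livers, against 384, 369, 464 and 326 in control livers. At week 20 it read 285, 177, 192 and 289 in KO livers, against 212, 136, 401 and 566 in control livers. The KO arrays were above all control arrays at weeks 4 and 8 and among them at week 20. Ifi27 was higher by 1.59 ± 0.28 and 3.08 ± 0.28 (adjusted p = 0.000112 and 1.86e-09). Its week 20 difference, -0.30 ± 0.28, did not pass (adjusted p = 0.573). RefSeq lists Ifi27 also as an older symbol of its neighbour Ifi27l2a, and gives D12Ertd647e, under which the file has 2 further probes, as an older symbol of Ifi27. Which of these genes the Ifi27 probe reads is therefore uncertain. Both D12Ertd647e probes were higher at all 3 weeks, also at week 20. The first differed by 2.63 ± 0.15, 1.82 ± 0.15 and 1.0 ± 0.15 (adjusted p = 8.75e-13, 3.08e-10 and 0.000204 over 14536 probes) and the second by 2.59, 1.84 and 1.04 (adjusted p = 5.49e-12, 1.21e-09 and 0.00039). Between weeks 4 and 8 the difference of these probes changed by -0.81 ± 0.21 and -0.76 ± 0.23 (adjusted p = 0.0168 and 0.0413), whereas that of the Ifi27 probe grew by 1.49 ± 0.39 (adjusted p = 0.0165). A probe under AW111922, an older symbol of Iigp1, was called at no week (differences of 0.00, -0.47 and 0.11).

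The remaining effectors were less even. Mx2, an interferon-induced GTPase that blocks viruses, was higher by 0.90 ± 0.25 and 1.53 ± 0.25 (adjusted p = 0.00856 and 1.79e-05). Its relative Mx1 was above background on 4 KO arrays and 0 control arrays of week 8, at least 2.21-fold brighter in KO livers (adjusted p = 0.00184). Only KO arrays brought Mx1 past the filter, so its call is not separate support for a KO difference. Trim30, a ubiquitin ligase that restrains inflammatory signalling, was higher by 1.47 ± 0.28 and 2.03 ± 0.28 (adjusted p = 0.00025 and 1.32e-06). Parp14, an ADP-ribosyltransferase, was higher by 1.31 ± 0.18 and 1.24 ± 0.18 (adjusted p = 6.14e-06 and 3.72e-06). Rtp4 was higher by 1.25 ± 0.26 at week 4 and 0.67 ± 0.26 at week 8 (adjusted p = 0.000724 and 0.0357), and its week 8 call was lost under 10 of 36 alternatives (adjusted p = 0.0622 to 0.108), among them the leaving out of control replicates 3, 4 or 5 or KO replicates 1, 3 or 4 of that week. Rtp4 also rose among controls between weeks 4 and 8 (0.90 ± 0.26, adjusted p = 0.0301). Bst2, the tetherin that holds budding viruses at the cell surface, overlapped between groups, with differences of 0.61 ± 0.35, 0.71 ± 0.35 and -0.56 ± 0.35 (adjusted p = 0.204, 0.0938 and 0.358). Ifi35 differed by 0.25 ± 0.17 and 0.28 ± 0.17 (adjusted p = 0.297 and 0.175), and Isg20, an exonuclease of RNA, by 0.53 ± 0.33 and 0.78 ± 0.33 (adjusted p = 0.245 and 0.0536).

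Usp18 strips the ubiquitin-like protein ISG15 from its targets and silences the type I receptor. It read 2698, 2344, 1516 and 2500.3 in KO livers of week 4, against 879, 1349, 846 and 1113 in control livers. At week 8 it read 3875, 3461, 5788 and 2341 in KO livers, against 577, 589, 815 and 519 in control livers. By week 20 KO livers gave 177, 250.4, 253 and 562 and control livers 358, 217, 345 and 391. The groups were apart at weeks 4 and 8 and overlapped at week 20. Usp18 was higher by 1.09 ± 0.28 and 2.55 ± 0.28 (adjusted p = 0.00426 and 4.39e-08) and stood at -0.17 ± 0.28 at week 20 (adjusted p = 0.776). Between weeks 4 and 8 its difference grew by 1.45 ± 0.39 (adjusted p = 0.02), and that of a second probe by 1.06, which missed the threshold (adjusted p = 0.136).

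Guanylate-binding proteins break open the vacuoles of intracellular microbes. Gbp2 signal was 498, 729, 494 and 760.3 in KO livers of week 4, against 276, 399.7, 324 and 293 in control livers. By week 8 the signal was 1076, 629.7, 1530.4 and 864 in KO livers, against 212, 168, 301 and 296 in control livers. At week 20 it was 245, 228, 186 and 408 in KO livers, against 212, 224, 145 and 172 in control livers. The KO arrays lay above the control arrays at weeks 4 and 8. Gbp2 was higher by 0.89 ± 0.24 and 1.96 ± 0.24 (adjusted p = 0.00743 and 3.46e-07). For week 20 the difference was 0.43 ± 0.24 (adjusted p = 0.317).

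Gbp3 read 610.3, 647, 498 and 717 in KO livers of week 4, against 171, 239.6, 212 and 187 in control livers. Week 8 gave 931, 650.2, 1393 and 605 in KO livers and 133, 162, 192 and 190.1 in control livers. Week 20 gave 102, 141, 109.8 and 224 in KO livers and 125, 91.9, 122 and 101 in control livers. The gap between the groups of weeks 4 and 8 was wide, and those of week 20 overlapped. With differences of 1.53 ± 0.22 and 2.23 ± 0.22 (adjusted p = 1.03e-05 and 9.29e-09), Gbp3 moved most in the gamma-type class at both weeks. Gbp6 read 82.6, 91.2, 112 and 93.7 in KO livers of week 4, against 69.2, 35.8, 72.7 and 78.5 in control livers. Its week 8 arrays gave 137, 96.2, 203 and 78.6 in KO livers and 55.0, 82.0, 46.0 and 71.8 in control livers, and overlapped in 1 pair of arrays. Gbp6 passed at week 8 (0.81 ± 0.25, adjusted p = 0.0104) and not at week 4 (0.50 ± 0.25, adjusted p = 0.148). The week 8 call ended without KO week 8 replicate 3, and a second Gbp6 probe did not pass (0.56 ± 0.32, adjusted p = 0.152). At week 20 Gbp6 read 25.8, 50.3, 50.2 and 68.7 in KO livers and 69.8, 45.3, 34.2 and 39.5 in control livers, with overlap. The Gbp genes are close copies in a cluster, so a probe may bind its neighbours' transcripts.

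The immunity-related GTPases, which in mice attack the same vacuoles, were uneven. Igtp signal was 1306, 1631, 1253 and 1596 in KO livers of week 4, against 980.4, 644, 607 and 820.2 in control livers. At week 8 KO livers read 1864, 1402, 2464 and 1816 and control livers 690.4, 806, 780.1 and 735. At week 20 KO livers read 292, 691, 706 and 1009.5 and control livers 545, 477, 628 and 723. The KO arrays stood above the control arrays at weeks 4 and 8, and at week 20 they held both the lowest and the highest value. Igtp was higher by 0.93 ± 0.24 and 1.28 ± 0.24 (adjusted p = 0.00505 and 9.58e-05), and its week 20 difference was 0.07 ± 0.24 (adjusted p = 0.9).

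Irgm1, a regulator of the other GTPases, read 8183, 8984, 7596 and 10173 in KO livers of week 4, against 7438, 7087, 5323 and 6724 in control livers. In week 8 KO livers gave 10478, 7988, 9484 and 7133 and control livers 8081, 7733, 7369.9 and 7794. In week 20 KO livers gave 5042, 5441, 5227 and 4719 and control livers 5642, 4859, 7681 and 6783. The groups were apart at week 4 and overlapped at weeks 8 and 20. Irgm1 was higher at week 4 by 0.40 ± 0.14 (adjusted p = 0.0302) and its 0.16 ± 0.14 of week 8 did not pass (adjusted p = 0.327). The week 4 call ended without control week 4 replicate 4, KO week 4 replicate 3 or KO week 4 replicate 5. A second Irgm1 probe did not pass at week 4 (0.26 ± 0.21, adjusted p = 0.387) and was lower at week 20 (-0.70 ± 0.21, adjusted p = 0.0482).

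Ifi47, another GTPase of the family, was the member called at week 20. It read 137, 178, 121 and 149 in KO livers of week 20, against 223, 189.7, 661 and 641 in control livers. All 4 KO arrays were below all 4 control arrays, and the control arrays fell into a low pair, replicates 1 and 2, and a high pair, replicates 3 and 4. The difference was -1.26 ± 0.31 (adjusted p = 0.0186). The call ended without control week 20 replicate 3, without control week 20 replicate 4 and without KO week 20 replicate 3. Without control week 20 replicate 2 or KO week 8 replicate 3, Ifi35 was called lower as well. At week 4 Ifi47 read 226, 529, 477 and 537 in KO livers, against 444, 280.2, 312 and 222 in control livers, and at week 8 563, 418, 539 and 417 in KO livers, against 448, 577, 538 and 489.9 in control livers. The groups overlapped at both weeks, with differences of 0.44 ± 0.31 and -0.09 ± 0.31 (adjusted p = 0.312 and 0.833). Tgtp, at background on most arrays, differed by 0.20 ± 0.30, 0.48 ± 0.30 and 0.33 ± 0.30 (adjusted p = 0.671, 0.197 and 0.561).

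Psmb8 and Psmb9 are subunits that turn the proteasome into the immunoproteasome, and Tap1 carries its peptides to MHC class I. Psmb9 signal was 808, 1049.9, 813 and 1181 in KO livers of week 4, against 557, 604, 533 and 465 in control livers. At week 8 it was 1175, 1132, 1481 and 959.5 in KO livers, against 499, 725, 669 and 688 in control livers. At week 20 it was 489.9, 552, 579.7 and 632 in KO livers, against 551, 631, 607 and 805 in control livers. The KO arrays were the brighter ones at weeks 4 and 8 without overlap, and the groups mixed at week 20. Psmb9 was higher by 0.80 ± 0.15 and 0.86 ± 0.15 (adjusted p = 0.000294 and 5.13e-05).

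Psmb8 read 166, 165, 194 and 204 in KO livers of week 4, against 128, 101, 87.7 and 93.0 in control livers. For week 8 it read 122, 122, 216 and 201 in KO livers and 137, 95.7, 71.7 and 102 in control livers. For week 20 it read 121, 134, 96.5 and 124 in KO livers and 120.4, 69.1, 156 and 159 in control livers. The groups of week 4 were apart, and 1 control array of week 8 lay among the KO arrays, while at week 20 the ranges overlapped. Psmb8 was higher by 0.75 ± 0.22 and 0.61 ± 0.22 (adjusted p = 0.0108 and 0.0219), and the week 8 call ended without any 1 of control week 8 replicate 4 and KO week 8 replicates 3 and 4.

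Tap1 read 66.1, 112, 97.6 and 138 in KO livers of week 4, against 42.4, 26.4, 37.6 and 82.6 in control livers, where control replicate 5 lay among the KO arrays. Its week 8 values were 104, 118, 164 and 127 in KO livers and 57.2, 90.5, 89.5 and 68.1 in control livers, without overlap. Week 20 arrays read 32.6, 63.5, 74.8 and 80.6 in KO livers and 104, 34.4, 67.5 and 60.4 in control livers and overlapped. Tap1 was higher at week 4 (0.95 ± 0.27, adjusted p = 0.00966) and just missed the threshold at week 8 (0.65 ± 0.27, adjusted p = 0.0501), where it passed with an offset of 50 and under other alternatives. Other genes of MHC class I presentation moved alike in part, with 7 of 9 higher and 1 lower at week 4, and 5 higher and 1 lower at week 8. Of all genes tested 14.8% were higher and 12.4% lower at week 4, and 24.9% higher and 24.0% lower at week 8. At week 20 none passed, and 1 was lower at an unadjusted p of 0.05.

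Set side by side, the type I class had larger median differences than the gamma-type class. All 8 measured type I members were higher at week 4 and at week 8, with median differences of 2.09 and 2.85. This count holds the dim Oas1a, which was measured through its KO arrays. Of the 7 above background on all 24 arrays, 7 were higher at each of these weeks, with medians of 2.18 and 3.17. Of the 9 gamma-type members 6 were higher at each of these weeks, with medians of 0.75 and 0.81. Without the dim Tgtp they were 6 of 8, with medians of 0.78 and 0.83. Of all genes tested 14.8% and 24.9% were called higher at weeks 4 and 8, with medians of -0.01 and -0.07. At week 20 the type I and gamma-type medians were 0.28 and 0.02. The type I median exceeded the gamma-type median by 1.34 at week 4 and by 2.04 at week 8, a description for which no test over genes was made. With Rsad2, Mx1, Mx2, Usp18 and Rtp4 added to the type I class and Irf1 and Tap1 to the gamma-type class, the type I median exceeded the other by 0.93, 1.72 and 0.12 at weeks 4, 8 and 20, beside 1.34, 2.04 and 0.26.

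**Figure D3:**
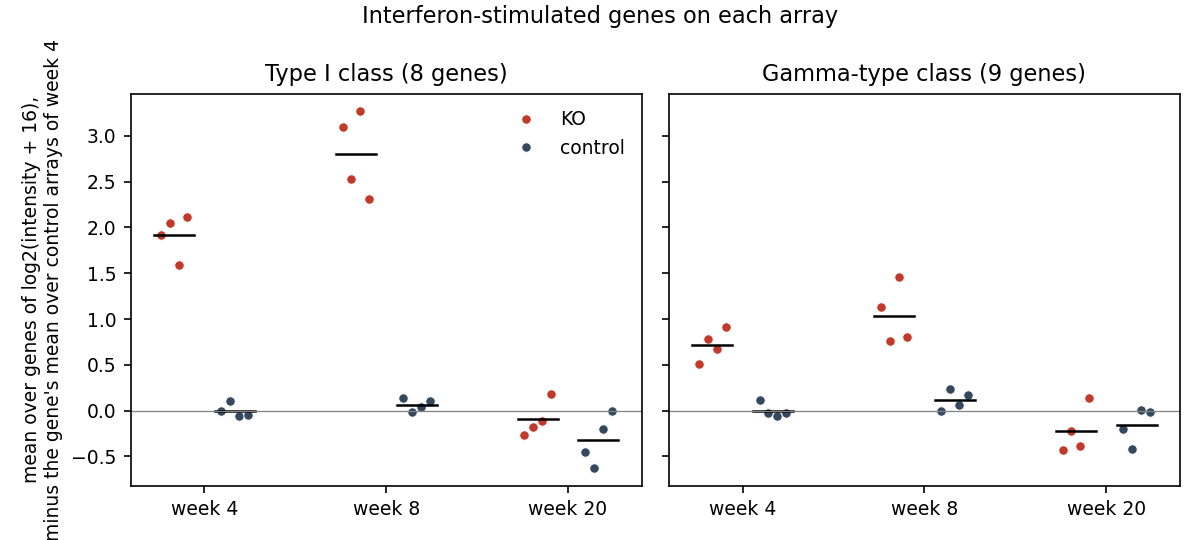
Mean over the genes of each class of log2(intensity + 16) on each array, after subtracting each gene's mean over the control arrays of week 4, with KO arrays left of control arrays (n = 4 each). Points are arrays and black lines group means. KO arrays of the type I class sit between 1.60 and 2.11 at week 4 and between 2.31 and 3.27 at week 8, those of the gamma-type class between 0.50 and 0.91 and between 0.76 and 1.45, and at week 20 KO and control arrays mix in both classes.

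The KO arrays differed among themselves. The mean of the type I class on the KO arrays of week 8, relative to the week 4 controls, was 3.10, 2.53, 3.27 and 2.31 for replicates 1 to 4, and that of the gamma-type class 1.13, 0.76, 1.45 and 0.80. Replicates 1 and 3 were thus the highest arrays in both classes. Among KO arrays of week 4 replicate 4 had the lowest type I mean (1.60, with 1.92, 2.05 and 2.11 on the others). On the KO arrays of week 20 the type I means were -0.26, -0.18, -0.11 and 0.18, against -0.46, -0.62, -0.20 and 0.00 on the control arrays.

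Whether the KO difference itself changed with time was tested as an interaction. Between weeks 4 and 8 it grew for 7 members, against 5.59% of all genes tested, and shrank for 0, also 0 at an unadjusted p of 0.05. The 7 were Ifit2 (1.61 ± 0.43), Oas1g (1.30 ± 0.32), Oas2 (1.17 ± 0.36), Oasl2 (1.02 ± 0.27), Rsad2 (1.43 ± 0.41), Ifi27 (1.49 ± 0.39) and Usp18 (1.45 ± 0.39), with adjusted p between 0.0104 and 0.0398. A second probe of Oas1g also passed (1.38, adjusted p = 0.0314 over 14536 probes), while those of Ifit2 (0.84, adjusted p = 0.237), Oasl2 (0.67, adjusted p = 0.329) and Usp18 (1.06, adjusted p = 0.136) missed the threshold. The D12Ertd647e probes, whose gene may be the one named Ifi27, went the other way. Of the 7, 4, Ifit2, Oas1g, Oas2 and Oasl2, are of the type I class and 0 of the gamma-type class, where the unadjusted count was 2. The count rests on single arrays: it was 3 without KO week 4 replicate 4 and 4 without control week 4 replicate 4 or KO week 8 replicate 3. Within KO livers 7 members, not all the same ones, were higher at week 8 than at week 4, against 4.97%. They were 2 Ifit genes, 4 Oas and Oasl genes and 1 other antiviral effector. Usp18 was not among them, and changed by 0.727 in KO livers and -0.725 in control livers. The within-KO count was 3 without KO week 4 replicate 4 or KO week 8 replicate 3 and 4 without KO week 8 replicate 1. Within control livers 2 were higher at week 8, Oasl1 and Rtp4, against 3.20%, and the count was 0 without control week 4 replicate 4 or control week 8 replicates 2 or 4 and 1 without control week 4 replicate 5 or control week 8 replicates 3 or 5.

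**Figure D4:**
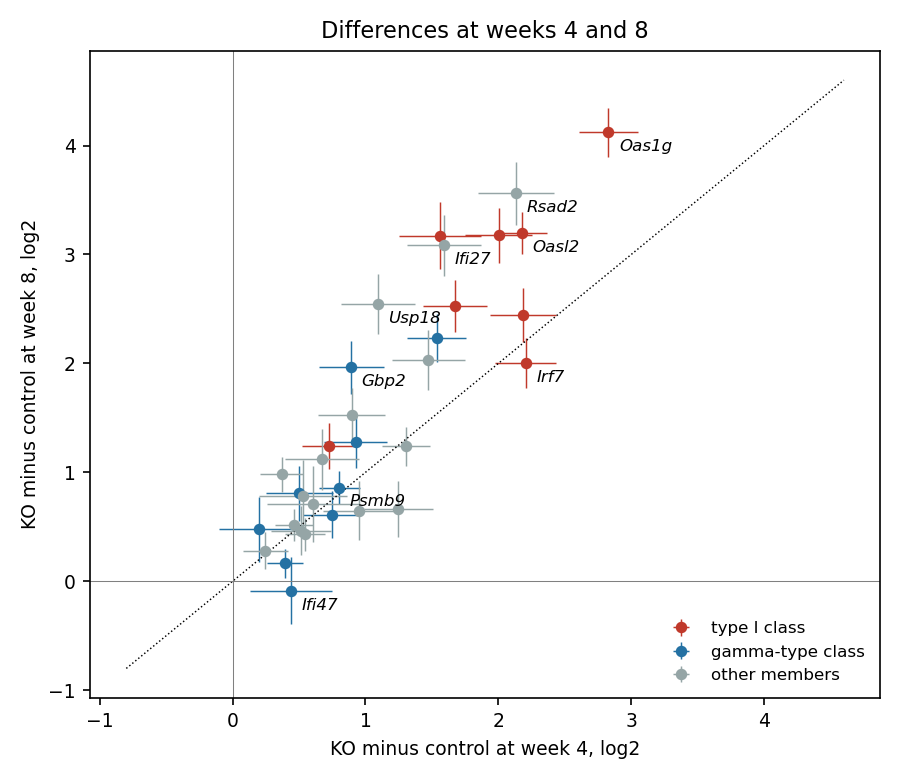
KO minus control difference at week 8 against that at week 4 for the 33 measured members on the log2(intensity + 16) scale. Points are members with standard errors (4 arrays per group), red for the type I class, blue for the gamma-type class and grey for the rest, and the dotted line marks equal differences. Oas1g, Rsad2, Oasl2, Ifi27 and Usp18 lie above the line and Irf7 below it, with Ifi47 near 0 at week 8.

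From week 8 to week 20 the KO difference shrank for 23 members, against 17.0% of all genes tested, and grew for 0, also 0 at an unadjusted p of 0.05. All 8 type I members and 5 of the 9 gamma-type members were among the 23. Changes ran from -3.70 ± 0.32 in Oas1g (adjusted p = 8.08e-09) and -3.63 ± 0.41 in Rsad2 (adjusted p = 4.48e-07) to -0.70 ± 0.21 in Irf9 (adjusted p = 0.0151). Among the 28 members bright on every array 21 shrank, 7 of them type I and 5 gamma-type. Of the 25 members higher at week 8, 21 were among the 23, an overlap partly built in as both contrasts use week 8 arrays. The 4 others, Gbp6, Psmb8, Ifitm3 and Rtp4, changed by -0.79 ± 0.36, -0.64 ± 0.31, -0.51 ± 0.20 and -0.42 ± 0.37, and missed the threshold. The levels within KO livers changed in the same way. In KO livers 31 members were lower at week 20 than at week 8, against 22.3%, Rsad2 by -4.38 ± 0.29 and Usp18 by -3.62 ± 0.28 (adjusted p = 1.99e-11 and 2.65e-10). For 29 members every KO array of week 20 lay below every KO array of week 8, against 18.8% of all genes tested. In control livers 0 members were lower at week 20 by limma, against 0.00932%, and at an unadjusted p of 0.05 the counts were 6 lower and 1 higher. Usp18 (-0.91 ± 0.28) and Ifit2 (-1.03 ± 0.31) had control differences near 1 that did not pass (adjusted p = 0.255 and 0.242).

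Interferon-induced genes outside the set followed a like course. Of 34 further such genes measured, 23 were higher and 0 lower at week 4, 27 higher and 1 lower at week 8, and 1 higher at week 20, beside 14.8%, 24.9% and 3.45% of all genes tested called higher. Cxcl10, a chemokine that draws activated T cells, read 545, 247, 709 and 587 in KO livers of week 8, against 17.1, 23.5, 28.3 and 51.0 in control livers, without overlap. Its differences were 2.33 ± 0.37, 3.50 ± 0.37 and 0.39 ± 0.37 at weeks 4, 8 and 20 (adjusted p = 3.58e-05, 2.45e-08 and 0.583). Slfn1, of the Schlafen family, was higher by 1.52 ± 0.23 and 3.01 ± 0.23 (adjusted p = 2.29e-05 and 1.43e-10). On control arrays Slfn1 read at most 19.4 and Ifi27l2b, below, at most 13.6. Both were thus measured through KO arrays, and the counts of further genes hold such dim genes. Lgals3bp, a secreted galectin ligand, was higher by 1.47 ± 0.20 and 2.25 ± 0.20 (adjusted p = 5.04e-06 and 1.66e-09), and Ifi30, a lysosomal thiol reductase, by 2.26 ± 0.23 at week 8 (adjusted p = 1.2e-08). Ifi27l2b, a paralog of Ifi27, was higher at all 3 weeks, by 3.15 ± 0.30, 1.89 ± 0.30 and 1.34 ± 0.30 (adjusted p = 2.48e-08, 1.32e-05 and 0.0102).

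Markers of several immune cell types were higher in the same weeks, when 14.8%, 24.9% and 3.45% of all genes tested were called higher (weeks 4, 8 and 20). Of 9 measured macrophage markers 7 were higher at week 4, 8 at week 8 and 2 at week 20. Their summed intensity ranged over 6049.8 to 9038 on KO arrays and 3038 to 3978 on control arrays at week 4, over 7209 to 14464 and 2505 to 3336 at week 8, and over 2007 to 4519 and 1754 to 4145 at week 20. The macrophage markers Cd5l, Itgam and Ccr2 were above background on no array. Of 6 T cell markers 1, 4 and 0 were higher at weeks 4, 8 and 20 (3 at week 20 at an unadjusted p of 0.05), with a sum of 268 to 468 on KO arrays and 57.8 to 111 on control arrays of week 8, while Cd4 and Cd8a were above background on 0 arrays. Of 4 NK cell markers 1, 2 and 1 were higher, with 362 to 673 on KO arrays and 260 to 302 on control arrays of week 8, and Ncr1 was above background on 0 arrays. Most of these sums came from Prf1, which overlapped between the groups of week 8. The NK cell markers Klrd1 and Nkg7 read at most 3.26 and 8.28 on control arrays of week 8 and were measured mostly through KO arrays. A single call among so few T or NK cell markers at week 4 is near the share of all genes. Of 4 neutrophil markers 0, 4 and 0 were higher, with 825 to 1812 on KO arrays and 14.1 to 77.7 on control arrays of week 8. Mpo, 1 of the 4, was above background only on the KO arrays of week 8, through which it was measured. The macrophage markers Cx3cr1 and Gpnmb and the plasmacytoid marker Siglech read at most 20.8, 16.4 and 16.5 on control arrays. These 3 were measured mostly through KO arrays. The 1 measured B cell marker, Cd79b, was higher at week 8 only by the test, and Ms4a1 and Pax5 were at background on every array. Of 3 plasmacytoid dendritic cell markers, a cell type that makes much type I interferon, 1, 2 and 0 were higher (also 0 at week 20 at an unadjusted p of 0.05), with 102 to 316 on KO arrays and 5.16 to 27.1 on control arrays of week 8. At week 4 the sums of these 3 markers overlapped, at 68.7 to 203 on KO arrays and 27.8 to 232 on control arrays. The single call of that week, among 3 markers, is too few to set against the share of all genes. None of the 4 neutrophil markers passed at an unadjusted p of 0.05 at weeks 4 or 20. The part of these cells in the levels of the interferon-stimulated genes was not tested.

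Hepatocyte markers summed to intensities of 119070 to 153240 per array, mostly from Apoa1, Ttr and Trf, which passed the test at no week. In these very bright probes the same normalized values recur, such as 36381 for Trf on several KO and control arrays. They could hide a change, so the sum does not show that hepatocyte signal was steady. Of 9 hepatocyte markers 2 were lower at week 4, 4 at week 8 and 1 at week 20, beside 12.4%, 24.0% and 2.25% of all genes tested, and 0 were higher at any week, with 0, 0 and 1 higher at an unadjusted p of 0.05. The probe of Alb, the albumin gene, read 104, 145, 92.8 and 109 in KO livers of week 8, against 997, 951, 972 and 925 in control livers, without overlap. Alb was lower at all 3 weeks, by -0.93 ± 0.16, -2.94 ± 0.16 and -1.41 ± 0.16 (adjusted p = 0.000121, 3.38e-13 and 5.65e-06). Serpina1a, a serum protease inhibitor gene, was lower at weeks 4 and 8, and Tat and Hnf4a at week 8. The part of hepatocyte content in the levels of the members was not tested. Of 7 markers of sinusoidal endothelium 0 passed at week 4 (1 lower at an unadjusted p of 0.05), 3 were lower and 1 higher at week 8, and 0 passed at week 20 (2 higher at an unadjusted p of 0.05).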

How the data were processed

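Per the labels, total RNA of liver was amplified to biotinylated cRNA for an Illumina mouse array. The deposited intensities were background-subtracted and normalized by the authors in GenomeStudio 2011, per the submitters' processing notes, and 27.8% of them lie below 0. Negative intensities were set to 0, 16 was added and log2 was taken of the deposited values. Probes above 16.3 (noise SD 7.03 from the root mean square of values below 0, one-sided p 0.01) on at least 4 arrays were kept, 14536 of 25697, and each gene took its probe of highest mean. Each array had 12182 to 12268 probes above background. The number of arrays limits the precision. Symbols were updated through RefSeq (GRCm38.p6), with 20733 current, 3872 updated, 1061 kept and 31 unnamed. Another deposited table has 48 per-sample columns whose names match no sample. They were not used.

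A mean for each of the 6 groups was fitted over the 24 arrays with limma 3.58.1 in R 4.3.3 (trended eBayes, Benjamini-Hochberg over 10734 genes, threshold 0.05). The fit was tested on simulated data. Every measured member could be named, and array values are given for Irf7, Irf9, Irf1, Stat2 and the 3 members of highest mean in each role group. Pathway genes could all be named, and of further interferon-induced genes the 4 largest calls at a week. Members, lists and tests were chosen with earlier results of these data known. Same-numbered arrays of KO and control did not deviate together (0 of 11 pairs had a correlation over 0.1), so the fit has no replicate block. Alternatives varied the offset, floor, filter, probe choice, normalization, variance trend, weights, arrays in the fit and each array in turn. Some results are not reported here.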

Additional observations from a re-analysis of the deposited data

Results flagged for a closer look

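On 10 occasions among 198 groups of 4 arrays, 1 array of a group lay far from the other 3 for a measured member (by Dixon's ratio at its 95% critical value). Chance marks about 1 in 20 groups. In 4 of the 10, the other 3 arrays were at the floor, where any value above it meets the limit. Values are log2(intensity + 16). Ifit3 was 10.42 on KO week 4 replicate 4, against 11.01 to 11.10 on the other KO arrays of that week. Ifi47 was 7.92 on KO week 4 replicate 1, against 8.95 to 9.11. Among KO arrays of week 20, Oas1a was 4.54 on replicate 2 and Mx1 4.21 on replicate 4, with the others at the floor. Among control arrays of week 4, Oas1a was 4.32 on replicate 3, Irf9 8.63 on replicate 4, Stat2 7.74 on replicate 5 and Tgtp 4.33 on replicate 5. Among control arrays of week 8, Irf7 was 7.58 on replicate 4, against 7.23 to 7.28, and Tgtp 5.44 on replicate 3, against 4.20 to 4.39. Stat2 passed the test at week 4 without control week 4 replicate 5 (0.74, adjusted p = 0.0125), beside 0.51 with it.

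The KO minus control difference itself changed with week, tested as an interaction, for 7 members between weeks 4 and 8 and for 23 between weeks 8 and 20. The members and their values are given above. The causes were not tested.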

How the results depend on the processing

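There were 36 alternatives, 24 of which left out 1 array each. The number of members called at week 4 was 24, with 21 to 25 when 1 array was left out and 23 to 28 otherwise, and at week 8 it was 25, with 21 to 27 and 23 to 28. Of the calls, 20 of 24 at week 4 and 20 of 25 at week 8 held under every alternative. The single call of week 20, Ifi47, became 0 to 2 calls when 1 array was left out and 0 with only the arrays of the contrast. The change between weeks 4 and 8 was called for 7 members, with 3 to 9 when 1 array was left out and 6 to 9 otherwise, and 3 of the 7 held under every alternative. For the change between weeks 8 and 20 the values were 23, 21 to 27 and 19 to 25, and 17 of the 23 held throughout. Within KO livers, week 8 against week 4 gave 7, with 3 to 10 when 1 array was left out and 4 with only the arrays of the contrast, and week 20 against week 8 gave 31, with 27 to 31. Within control livers, week 8 against week 4 gave 2, with 0 to 2 when 1 array was left out, 0 with an offset of 50, 0 with no filter, 7 with only the arrays of the contrast, 8 with array weights and 5 without control week 20 replicates 3 and 4. Week 20 against week 8 gave 0, and 2 without those 2 arrays. No called KO minus control difference, and no called change of it between weeks, reversed its direction under these alternatives. For the calls within KO or control livers the direction was not followed member by member.

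The type I minus gamma-type median was 1.34 at week 4, with 1.24 to 1.5 when 1 array was left out, 0.93 with the wider classes, 1.14 with an offset of 50 and 1.17 with the mean of all probes. At week 8 it was 2.04, with 1.88 to 2.15 and otherwise 1.72 with the wider classes to 2.44 after quantile normalization, and at week 20 0.26, with 0.16 to 0.38 and otherwise 0.12 with the wider classes to 0.52 after quantile normalization. With the replicate number as a block the counts were 24, 26 and 1 at weeks 4, 8 and 20, 7 and 25 for the changes of the difference, 8 and 30 within KO livers and 1 and 0 within control livers, and the medians differed by 1.34, 2.0 and 0.26. The numbers gave no sign of pairing, as correlations of same-numbered arrays of a week ran from -0.14 to 0.04. This check cannot exclude a pairing. Leaving out KO week 8 replicate 4 gave 24, 23 and 1 calls at weeks 4, 8 and 20.

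Dim signals limit Oas1a, Mx1, Tgtp, Isg20 and Rtp4, which are near background on many arrays, and an Ifit1, Ifi44 or Oas3 difference was not detectable. With 4 arrays a group, members that missed the threshold are not shown to be equal. The deposited values had been normalized, and neither their hybridisation dates nor array positions are given in the sources used here, so no batch was tested. Causes of the values that moved were not tested.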
